A study of Drosophila melanogaster with 16 samples.

Results

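The 6 genes described here, fkh, sage, CrebA, pip, PH4alphaSG1 and PH4alphaSG2, mark the salivary gland of the Drosophila embryo and its secretory function. They were chosen by name for that role, with earlier results of these data known, and were matched to their FlyBase gene identifiers. All 6 of them were found in both deposited expression tables, which list 13754 genes each. RNA-seq values were available for 16 single embryos at stage 16 in 2 comparisons: 5 Asx0 mutant embryos against 3 wild-type embryos, and 4 SceI48A mutant embryos against 4 other wild-type embryos. All wild-type embryos were Oregon-R. The Asx0 embryos were homozygous for a null allele of Asx on a w; F40 F42D y+ Asx0 chromosome background and were picked as progeny without the GFP of the CyO twi-Gal4 UAS-GFP balancer, so their mothers carried a wild-type Asx copy. The SceI48A embryos carried an inserted SceI48A transgene in a Sce0 background (F82B cu sr Sce0). Their parents had a wild-type Sce cassette that nos-Gal4VP16 with UAS-FLP removes in the germline, so that neither mother nor zygote supplied wild-type Sce. Mutant and wild-type embryos differ in these markers and insertions as well as in the mutation, and the strain and the mutation cannot be told apart.

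The embryonic salivary gland is a simple secretory organ that forms from ectoderm of a head segment under the Hox protein Scr and its cofactors. fkh encodes a FoxA transcription factor that keeps the gland fate and is needed for gland cells to invaginate and survive, and sage encodes a basic helix-loop-helix factor that works with it. CrebA encodes a bZIP factor that raises expression of the general secretory machinery. pip encodes a Golgi sulfotransferase and is also known from the ovary, where it sets the dorsal-ventral axis. PH4alphaSG1 and PH4alphaSG2 encode prolyl 4-hydroxylase alpha subunits, enzymes of the endoplasmic reticulum that modify secreted proteins. Asx is the partner that the deubiquitinase Calypso requires in PR-DUB, the complex that takes ubiquitin off histone H2A. Sce is the ubiquitin ligase subunit of Polycomb repressive complex PRC1 that puts it on, and the I48A form lacks that activity. The comparisons ask how RNA of gland genes stands in embryos that lack the eraser and in embryos whose writer is inactive.

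The deposited values are log2 normalized counts, and the transformation behind them is not given in the sources used here. Genes with mean counts of 10 to 50 had a median within-group SD of 0.0563 in the Asx0 table and 0.0558 in the SceI48A table, below the 0.0844 and 0.124 of genes above 1000, so differences of low genes may be understated on this scale. The tables give no totals of reads for single embryos, and the depth behind each value is unknown. Each table was fitted alone with limma over genes whose mean normalized count was at least 10, which were 10212 genes in the Asx0 table and 10369 in the SceI48A table. A gene was called at a Benjamini-Hochberg adjusted p under 0.05 over all genes tested. The 2 tables were normalized apart, so their levels and fold changes are set side by side with no test between them. Nothing in the labels says whether embryos shared parents or a collection, and the p-values measure the spread between these embryos. The authors had selected them from a larger set by principal components of expression and by morphology. The spread is thus that of selected embryos and may be narrower than that of all embryos sequenced. In the Asx0 table wild-type replicate 1 stood apart: 33 genes lay over 0.5 on the log2 scale below all other 7 embryos in it, against 1 to 14 such genes in each of the others. In the SceI48A table, SceI48A replicate 1 held 50 such genes and wild-type replicate 1 held 21, against 0 to 7 in the others. Asx RNA in the Asx0 embryos (log2 fold change of -0.03, limma adjusted p = 0.793) and Sce RNA in the SceI48A embryos (0.11, adjusted p = 0.381) were not called, so RNA levels do not check these alleles.

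In Asx0 embryos 1 of the 6 gland genes, sage, was called and was higher than in wild type. In SceI48A embryos 1 of 6, pip, was called and was higher. Over all genes tested, 11.3% were called in the Asx0 comparison (5.19% higher and 6.15% lower) and 7.48% in the SceI48A comparison (3.1% higher and 4.39% lower). By that measure 1 call among 6 genes is near the background of either comparison. At an unadjusted limma p under 0.05, 1 of the 6 was higher in Asx0 embryos and 0 were lower. In SceI48A embryos 4 of the 6 were higher and 1 was lower at that level. The share of all tested genes at that level is not given here, so such counts cannot be set against the percentages above. No gland gene changed by more than 2-fold, a limit that 0.441% and 0.405% of all genes passed together with the adjusted p. The median log2 fold change of all tested genes was 0.00 in both comparisons, with the middle 50% between -0.08 and 0.08 in the Asx0 comparison and between -0.10 and 0.10 in the SceI48A comparison. RNA was made from whole embryos, in which the number of gland cells, the RNA per gland cell and RNA of these genes from other tissues cannot be told apart.

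**Figure D1:**
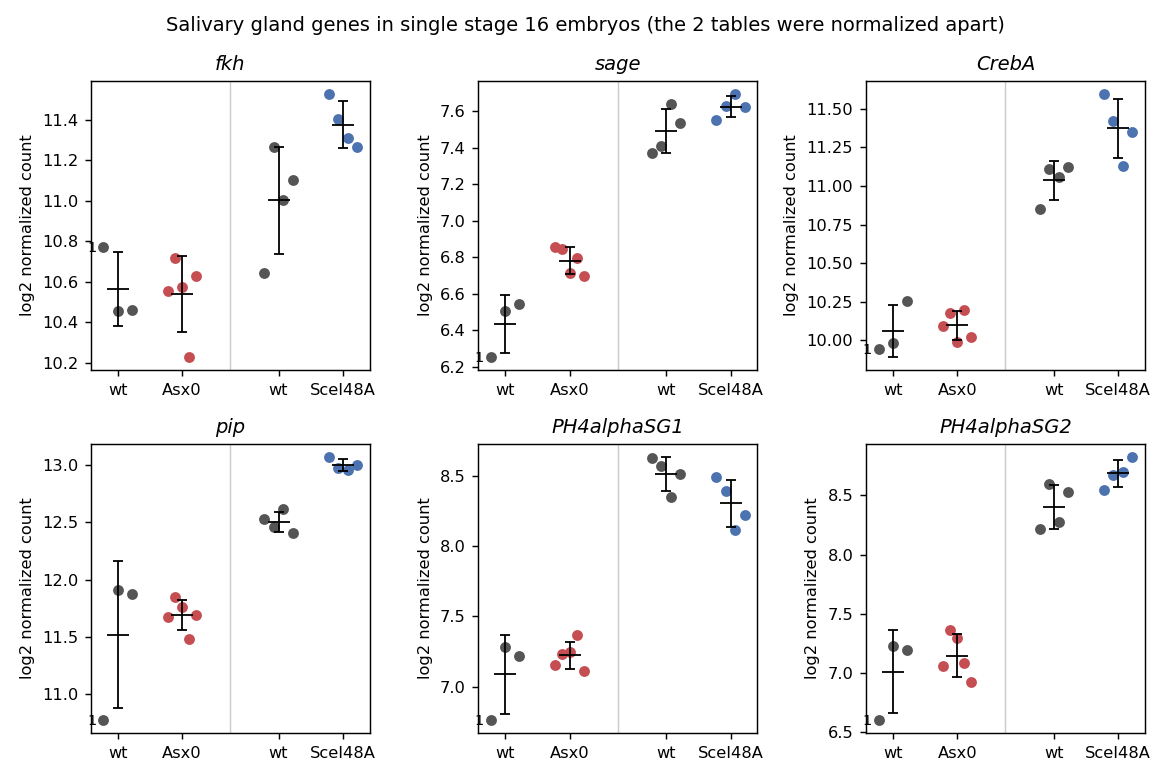
The log2 normalized count of each gland gene (vertical axes, which differ between panels and do not start at 0) in every embryo, by group, with wild type (wt) in grey, Asx0 in red and SceI48A in blue. Bars give the mean and SD, the grey line parts the 2 tables, which were normalized apart, and "1" marks wild-type replicate 1 of the Asx0 table, where pip was 10.77 against 11.48 to 11.90 in the other 7 embryos.

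fkh (FBgn0000659) lies on chromosome 3R (dm6, chr3R:28580976-28585264, minus strand), as a gene of 1 exon in its annotated transcripts. Its log2 normalized counts were 10.55, 10.72, 10.57, 10.23 and 10.63 in Asx0 replicates 1 to 5 and 10.77, 10.46 and 10.46 in the wild-type embryos. The groups overlapped, with Asx0 replicate 4 the lowest and wild-type replicate 1 the highest of the 8 embryos. This gave a log2 fold change of -0.02 ± 0.11 (SE; limma adjusted p = 0.917), with a 95% interval from -0.26 to 0.22. Without wild-type replicate 1 it was 0.08 (adjusted p = 0.712). Among SceI48A embryos, fkh was at 11.53, 11.40, 11.31 and 11.26 in replicates 1 to 4, and wild type was at 10.64, 11.27, 11.00 and 11.10. The lowest mutant embryo and the highest wild-type embryo met at 11.26 and 11.27, so the groups just overlapped. Its log2 fold change of 0.37 ± 0.12 (SE) did not pass adjustment over all genes (adjusted p = 0.0774 from limma). Wild-type replicate 1 was the lowest embryo, and without it the log2 fold change was 0.25 (limma adjusted p = 0.131), while without SceI48A replicate 1 it was 0.32 (adjusted p = 0.151).

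sage (FBgn0037672) is a short gene on chromosome 3R (chr3R:9262654-9264142, minus strand) with 2 annotated transcripts, and it is the only gland gene called in Asx0 embryos. Its log2 normalized counts were 6.86, 6.85, 6.72, 6.80 and 6.70 in the Asx0 embryos and 6.25, 6.51 and 6.55 in wild type. All 5 mutant embryos lay above all 3 wild-type embryos. Groups without overlap were found for 20.1% of all tested genes in this comparison, 9.79% higher and 10.3% lower. The log2 fold change of sage was 0.35 ± 0.07 (SE; limma adjusted p = 0.0112), a 1.27-fold difference with a 95% interval from 1.14-fold to 1.42-fold. Wild-type replicate 1 of this table was the lowest embryo, and without it the log2 fold change was 0.26 and still called (limma adjusted p = 0.0336). sage was called in each of the 8 fits that left out 1 embryo. In SceI48A embryos, sage was at 7.55, 7.63, 7.69 and 7.63, and in their wild type at 7.37, 7.41, 7.64 and 7.54. Here the groups overlapped, and the log2 fold change of 0.13 ± 0.08 (SE) was not called (adjusted p = 0.301 from limma, 95% interval from -0.03 to 0.30). It was 0.16 without SceI48A replicate 1 and 0.09 without wild-type replicate 1. Whether the effect on sage differs between the mutants was not tested.

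CrebA (FBgn0004396) lies on chromosome 3L (chr3L:15535395-15553214, plus strand). In the Asx0 table its log2 normalized counts were 10.09, 10.17, 9.99, 10.20 and 10.02 in mutant embryos and 9.94, 9.98 and 10.25 in wild type. The highest and the lowest of the 8 embryos were both wild type, and the log2 fold change was 0.04 ± 0.08 (SE; limma adjusted p = 0.821, 95% interval from -0.14 to 0.21). Without wild-type replicate 1 it was -0.02 (adjusted p = 0.914). In the SceI48A table CrebA was at 11.59, 11.42, 11.13 and 11.35 in mutant embryos and at 10.85, 11.11, 11.06 and 11.12 in wild type. All 4 mutant embryos were above all 4 wild-type embryos, although the lowest mutant and the highest wild-type embryo were next to each other at 11.13 and 11.12. In this comparison 18% of all tested genes had groups without overlap, 8.89% higher and 9.1% lower. CrebA, with a log2 fold change of 0.34 ± 0.10 (SE), was not called (adjusted p = 0.0659 from limma). It was called with SceI48A replicate 3 left out (0.42, limma adjusted p = 0.0293) and not with any other embryo left out, the value falling to 0.26 without SceI48A replicate 1 (adjusted p = 0.121) and 0.28 without wild-type replicate 1 (adjusted p = 0.143).

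pip (FBgn0003089) is the longest of the 6 genes (chr3L:19298623-19337609, minus strand) and has 11 annotated transcripts. Its last bases overlap an exon of fal on the opposite strand. Whether strand was used in quantification is not given in the sources used here, so reads of the overlap cannot be assigned. The SceI48A table gave pip at 13.07, 12.98, 12.95 and 13.00 in mutant embryos and at 12.53, 12.46, 12.62 and 12.41 in wild type. All 4 mutant embryos lay above all wild-type embryos, with a gap wider than the range within either group. pip was higher by 0.50 ± 0.07 on the log2 scale (SE; limma adjusted p = 0.00144), a 1.41-fold difference with a 95% interval from 1.27-fold to 1.57-fold, above that of 99.1% of all tested genes. pip was called in each of the 8 fits that left out 1 embryo, with log2 fold changes of 0.47 to 0.54.

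In the Asx0 table, pip was at 11.67, 11.84, 11.76, 11.48 and 11.69 in mutant embryos, but at 10.77, 11.90 and 11.87 in wild type. Wild-type replicates 2 and 3 were above all mutant embryos and wild-type replicate 1 was below all of them. Its log2 fold change was 0.17 ± 0.21 (SE; limma adjusted p = 0.660), and it was -0.20 (adjusted p = 0.203) without wild-type replicate 1, so its direction depends on that embryo. The within-group SD of pip in this table, 0.388, was above that of 98.4% of the 1653 genes within 2-fold of its mean count. Among the SceI48A table's embryos the SD was 0.0728, above that of 14.1% of such genes.

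**Figure D2:**
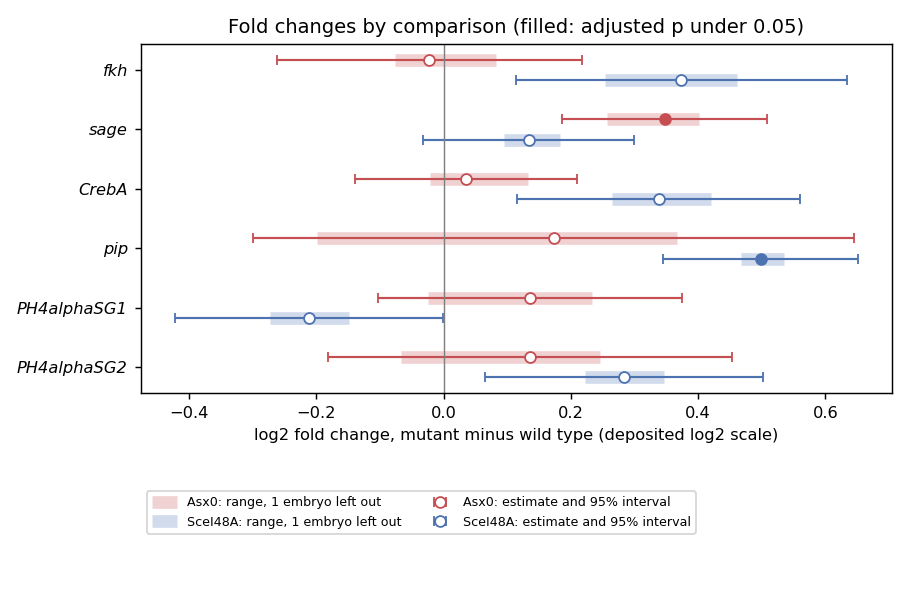
The log2 fold change of each gland gene, mutant minus wild type, on the deposited log2 scale, for Asx0 (red) and SceI48A (blue), with the 95% interval from limma as a thin line and the range over fits that left out 1 embryo as a pale bar. Filled points passed an adjusted p under 0.05, namely sage in Asx0 (0.35) and pip in SceI48A (0.50), and the pale bars of fkh, CrebA, pip, PH4alphaSG1 and PH4alphaSG2 in Asx0 cross 0.

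PH4alphaSG1 (FBgn0051014, chr3R:30503665-30505661, minus strand) and PH4alphaSG2 (FBgn0039779, chr3R:30490074-30491987, plus strand) lie close to each other in a cluster of related genes on chromosome 3R. PH4alphaSG1 was at 7.16, 7.24, 7.24, 7.37 and 7.11 in Asx0 embryos and at 6.76, 7.28 and 7.22 in wild type, with a log2 fold change of 0.14 ± 0.11 (SE; limma adjusted p = 0.467). PH4alphaSG2 was at 7.06, 7.37, 7.29, 7.08 and 6.92 in Asx0 embryos and at 6.60, 7.23 and 7.19 in wild type, with a log2 fold change of 0.14 ± 0.14 (SE; limma adjusted p = 0.600). In both genes wild-type replicate 1 was the lowest of the 8 embryos. Without it the log2 fold changes were -0.03 and -0.07 (limma adjusted p = 0.884 and 0.772), so the direction of both depends on that embryo.

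PH4alphaSG1 in the SceI48A table was at 8.49, 8.39, 8.12 and 8.22 in mutant embryos and at 8.63, 8.57, 8.35 and 8.51 in wild type. All 4 mutant embryos were below the wild-type mean, but the groups overlapped, and the log2 fold change of -0.21 ± 0.10 (SE) was not called (adjusted p = 0.202 from limma). PH4alphaSG2 was at 8.54, 8.68, 8.70 and 8.83 in mutant embryos and at 8.22, 8.59, 8.27 and 8.53 in wild type. Here the mutant embryos were above the wild-type mean, again with overlap, and the log2 fold change was 0.28 ± 0.10 (SE; limma adjusted p = 0.104). Without SceI48A replicate 1 these values were -0.27 for PH4alphaSG1 and 0.33 for PH4alphaSG2, and without wild-type replicate 1 they were -0.17 and 0.22. None was called. The level of PH4alphaSG2 minus that of PH4alphaSG1 within an embryo, a quantity chosen after the values were seen, was 0.05, 0.28, 0.58 and 0.60 in SceI48A embryos and -0.41, 0.02, -0.08 and 0.01 in wild type. The means were 0.38 ± 0.26 (SD, n = 4) and -0.11 ± 0.20 (SD, n = 4), and the groups did not overlap, the closest embryos being at 0.05 and 0.02. As the quantity was picked for this pattern, it is a description with no test. The same quantity was -0.08 ± 0.17 (SD, n = 5) in Asx0 embryos and -0.08 ± 0.07 (SD, n = 3) in their wild type.

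The cluster also holds the family members PH4alphaEFB, PH4alphaMP, PH4alphaNE1 and PH4alphaNE2 on the same stretch of chromosome 3R. Of the 6 other family members in the tables, 2 passed the minimum count. PH4alphaEFB, which is broadly expressed, had log2 fold changes of 0.00 in Asx0 (limma adjusted p = 0.979) and -0.08 in SceI48A embryos (adjusted p = 0.634). PH4alphaPV had 0.00 (adjusted p = 0.984) and 0.22 (adjusted p = 0.161). PH4alphaMP, whose exon overlaps PH4alphaSG2 on the opposite strand, had a mean normalized count of 5.84 in the Asx0 table and 1.44 in the SceI48A table, against 143 and 385 for PH4alphaSG2. As strand is not given, reads of the overlap cannot be assigned, but the values listed for PH4alphaMP were low.

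Levels of different genes were compared per length, as the log2 normalized count minus the log2 length in kilobases of the median annotated transcript. On this scale pip had the highest level in all 4 groups, at 11.10 ± 0.13 (SD, n = 5) in Asx0, 10.92 ± 0.64 (SD, n = 3) in its wild type, 12.41 ± 0.05 (SD, n = 4) in SceI48A and 11.91 ± 0.09 (SD, n = 4) in its wild type, and its embryos did not overlap those of the next gene. fkh and CrebA followed, at 8.53 and 8.15 in Asx0 and at 9.37 and 9.43 in SceI48A embryos, and their ranges overlapped in each group but the wild type of the Asx0 table. PH4alphaSG1, PH4alphaSG2 and sage were lowest, between 6.39 and 6.45 in Asx0 embryos, where their ranges overlapped. In SceI48A embryos PH4alphaSG2 at 7.94 was above PH4alphaSG1 at 7.53 with no overlap, whereas in their wild type the ranges overlapped at 7.65 and 7.74. The place of pip depends on the length used: its exons joined span 10964 bases against 1509 for the median transcript, and with joined exons fkh, at 8.44 and 8.46 on average, was above pip at 8.24 and 8.06 in the Asx0 table, with overlapping ranges.

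**Figure D3:**
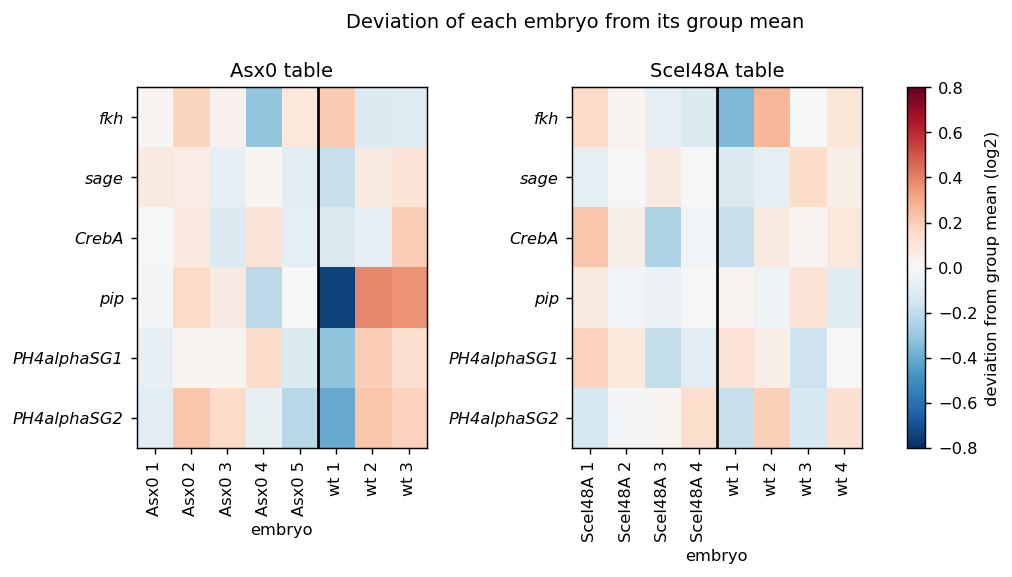
The deviation of each embryo from the mean of its own group (colour, log2 units) for the 6 gland genes in the Asx0 table (left) and the SceI48A table (right), with a black line between mutant and wild-type embryos. Wild-type replicate 1 of the Asx0 table is low for pip, PH4alphaSG2, PH4alphaSG1, sage and CrebA and high for fkh, with pip at -0.74 from its group mean.

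Within the Asx0 table, wild-type replicate 1 held the lowest value of 5 of the 6 gland genes and the highest value of fkh. pip lay 0.71 below the lowest of the other 7 embryos, the 15th largest such gap of all 10212 tested genes. PH4alphaSG1 lay 0.35 below, PH4alphaSG2 0.32 and sage 0.25, gaps that ranked 71, 90 and 144. CrebA lay 0.04 below. Genes with larger gaps in the same embryo included the cuticle protein gene TwdlV, at 10.12 against 12.19 to 12.62, and Cpr65Eb, another cuticle protein gene, at 10.64 against 11.72 to 11.99. The mean log2 level of 84 cuticle protein genes was 9.39 in that embryo, within the 9.29 to 9.51 of the others. Its msl-2 to Sxl difference was -3.94, near that of wild-type replicate 3 (-3.90) and Asx0 replicate 1 (-3.69). The others were at -2.53 to -2.37. These genes differ between the sexes, but the labels give no sex for any embryo. With the low values in wild-type replicates 1 and 3 and Asx0 replicate 1, this difference is not balanced between the mutant and wild-type groups. Wild-type replicate 3 was not low in pip, with 11.87. The part of the cuticle genes and of the msl-2 to Sxl difference in the values of wild-type replicate 1 was not tested.

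The gland genes did not vary together in the same way in both tables. Across the 8 embryos of the Asx0 table, with group means removed, Pearson's r between pip and PH4alphaSG2 was 0.87, and between pip and sage 0.80. Across the 8 embryos of the SceI48A table these were -0.74 and 0.09. fkh and CrebA had r of -0.47 in the Asx0 table and 0.74 in the SceI48A table. These are descriptions over few embryos that share a normalization, and wild-type replicate 1 weighs heavily in the first table. With group means removed, each r has 6 degrees of freedom per table. Of 10069 genes tested in both tables, those whose deviations were most like a gland gene, by the mean r over the 2 tables, were CG43783 and PolD1, a DNA polymerase subunit gene, for fkh (0.87 and 0.84). For sage they were Gfat1, an enzyme of amino sugar synthesis, Lamtor1 and AsnS (0.92, 0.86 and 0.85). Gfat1 was called lower in Asx0 embryos, at 13.87 to 14.00 against 14.09 to 14.31 in wild type (log2 fold change of -0.28 ± 0.06 (SE), limma adjusted p = 0.0149), whereas sage was called higher. For CrebA they were the chromatin remodeller gene Mi-2, ken and Eaf (0.91, 0.91 and 0.90). For pip they were Arl8, dpr21 and CG13159 (0.87, 0.85 and 0.84). CG13159 had an r of 0.98 with pip in the Asx0 table, where it was at 12.96 in wild-type replicate 1 and at 13.80 to 14.24 in the other embryos. For PH4alphaSG1 they were RfC38, gsb and CG14356 (0.87 each) and for PH4alphaSG2 CG31832, DIP-eta and CG32816 (0.89, 0.89 and 0.87). All of these are the highest values picked from 10069 genes. How high the largest r of so many genes runs by chance was not tested, so no link to a gland gene is drawn from them.

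The genes around the gland genes in their pathway were read from lists. Of 12 regulators that specify or shape the gland (Scr, exd, hth and others), 1 was called in each comparison. Over all tested genes 11.3% were called in the Asx0 and 7.48% in the SceI48A comparison, so this count is near the background. klar, which acts in gland lumen shape, had 13.16 ± 0.04 (SD, n = 5) in Asx0 embryos against 12.96 ± 0.05 (SD, n = 3) in controls, a log2 fold change of 0.20 ± 0.05 (SE; limma adjusted p = 0.0207). It lost its call without wild-type replicate 1 or 2 (adjusted p up to 0.0859) and with a covariate from msl-2 and Sxl (adjusted p = 0.0867). ps, an RNA-binding splicing factor gene expressed in the gland, had 15.73 ± 0.11 (SD, n = 4) in SceI48A embryos against 15.41 ± 0.09 (SD, n = 4) in controls, a log2 fold change of 0.32 ± 0.08 (SE; limma adjusted p = 0.0337). It was called in 3 of 8 fits that left out 1 embryo: it lost its call without SceI48A replicate 2 or 3 or wild-type replicate 2, 3 or 4 (adjusted p up to 0.0776). The median log2 fold change of the list was -0.04 in Asx0 and 0.02 in SceI48A embryos.

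pip needs a sulfate donor in the Golgi and a chaperone to leave the endoplasmic reticulum, and 10 genes of sulfation and of that route were listed. In Asx0 embryos 2 of the 10 were called, both higher, against 5.19% of all tested genes called higher. sfl, which encodes the heparan sulfate N-sulfotransferase, was at 11.11 ± 0.05 (SD, n = 5) against 10.60 ± 0.15 (SD, n = 3) in controls, a log2 fold change of 0.51 ± 0.07 (SE; limma adjusted p = 0.000714), called with any 1 embryo left out. sll, the transporter of the sulfate donor into the Golgi, was higher by 0.30 ± 0.08 (SE; limma adjusted p = 0.0457), but it was called in 1 of 8 fits that left out 1 embryo, the fit without wild-type replicate 3. In SceI48A embryos 1 of the 10 was called: wbl, the chaperone that Pip needs, had a log2 fold change of -0.36 ± 0.09 (SE; limma adjusted p = 0.0403), and it was called in 0 of 8 fits that left out 1 embryo (adjusted p of 0.0526 to 0.103). Of all tested genes, 4.39% were called lower in the SceI48A comparison. The median of the list was 0.04 in Asx0 and 0.07 in SceI48A embryos. Papss, the synthase of the sulfate donor, was not called in either (0.12 and 0.15, limma adjusted p = 0.408 and 0.567).

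The general secretory machinery, a known target of CrebA, was read from 57 genes in 4 lists. In Asx0 embryos 0 were called higher and 4 were called lower (median log2 fold change of -0.04). Over all tested genes 5.19% were called higher and 6.15% lower, so 4 of 57 lower is near the background. CaBP1, a protein disulfide isomerase of the endoplasmic reticulum, had a log2 fold change of -0.36 ± 0.05 (SE; limma adjusted p = 0.00098). Plod, which hydroxylates lysines of collagen, had a log2 fold change of -0.35 ± 0.06 (SE; limma adjusted p = 0.00281). Both were called in each of the 8 fits that left out 1 embryo. The coatomer subunit gene epsilonCOP (-0.27, adjusted p = 0.0123) lost its call without wild-type replicate 2 (adjusted p = 0.0556). Tapdelta, of the translocon-associated complex (-0.22, adjusted p = 0.0310), was called in 2 of 8 such fits and lost its call without Asx0 replicate 1, 3 or 5 or any 1 of the wild-type embryos. In SceI48A embryos 0 of the 57 were called by limma in either direction, against 7.48% of all tested genes. At an unadjusted limma p under 0.05, 2 were higher and 7 lower (median -0.05). Of the 19 genes for translocation into the endoplasmic reticulum, 18 had negative log2 fold changes in SceI48A embryos (median -0.13, from -0.29 to 0.07), and 5 of them had an unadjusted p under 0.05. The most abundant of them, Sec61alpha and Sec61beta, had -0.04 and -0.01. The mean log2 level of the 19 genes was 11.3517 to 11.5274 in SceI48A embryos and 11.5287 to 11.6388 in wild type, so the closest embryos nearly met. The 19 genes were measured in the same embryos under 1 normalization and are not separate observations. In Asx0 embryos 13 of the 19 were negative (median -0.06). The share of all tested genes at an unadjusted p under 0.05 is not given here, so the counts at that level have no background beside them. Of the 12 listed larval glue protein genes, which the gland makes later in development, 0 passed the minimum count in either table (highest mean count of 5.74 for Sgs1 and 9.56 for Eig71Ee).

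**Figure D4:**
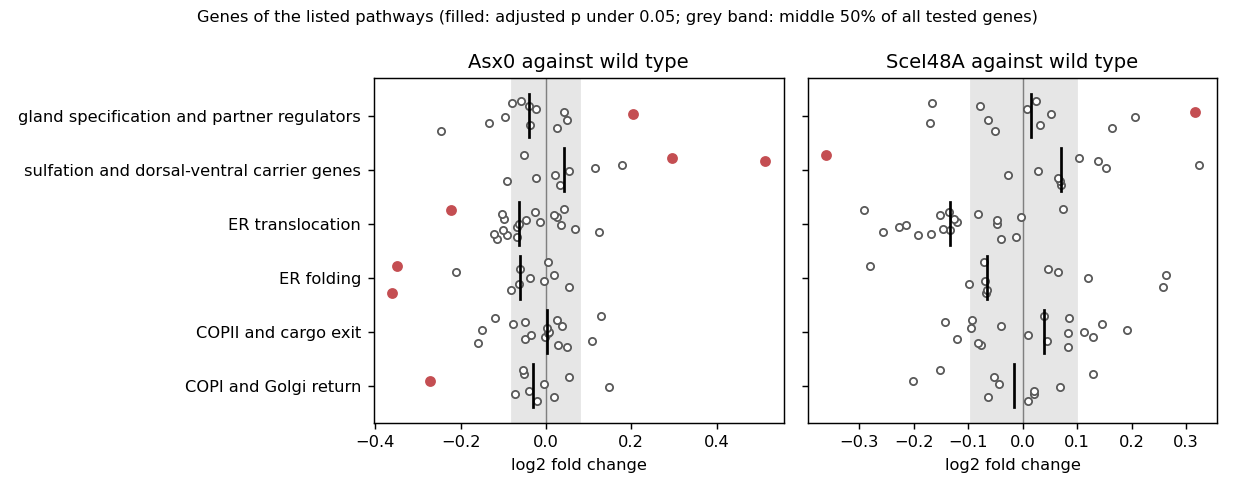
The log2 fold change (horizontal axes, on the deposited log2 scale, with different ranges) of each tested gene in 6 lists of gland regulators, sulfation and secretory genes, for Asx0 (left) and SceI48A (right) against wild type. Each point is a gene, filled red where its adjusted p was under 0.05, black bars are list medians, and the grey band holds the middle 50% of all tested genes. The ER translocation genes of SceI48A embryos lie to the left, with 18 of 19 negative and none called.

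Markers of other tissues were read beside the gland genes. Over 8 lists of markers, 7 of 55 tested genes were called in Asx0 embryos, all lower (12.7%, against 11.3% of all genes), and 6 of 55 in SceI48A embryos, 5 of them lower (10.9%, against 7.48%). In Asx0 embryos 3 of 7 tested midgut markers were called lower (list median log2 fold change of -0.09). The mean log2 level of the list was 8.47 to 8.53 in mutant and 8.84 to 9.08 in wild-type embryos, a gap carried mostly by the midgut protease gene Jon65Aiii (log2 fold change of -2.22). Without that gene the ranges were 8.70 to 8.81 and 8.84 to 9.02. In SceI48A embryos the tracheal gene pio was called higher, 1 of 8 in its list (median 0.14). The mean level of that list was 12.89 to 13.04 against 12.74 to 12.81 in wild type, but the ranges overlapped without pio (13.18 to 13.38 against 13.12 to 13.20). Hemocyte markers had 2 of 4 called lower in SceI48A embryos (median -0.23), and their mean levels of 11.57 to 11.68 against 11.89 to 12.04 in wild type overlapped once NimC1 (-1.08) was left out.

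The remaining counts of called markers in Asx0 embryos were 0 of 8 for trachea and for muscle, 1 of 9 for epidermis, 1 of 7 for neurons, 1 of 5 for hemocytes and 1 of 3 for fat body. In SceI48A embryos they were 1 of 7 for midgut, 1 of 9 for epidermis, 0 of 8 for muscle, 0 of 7 for neurons and 1 of 4 for fat body. At an unadjusted limma p under 0.05 in Asx0 embryos, trachea had 2 higher, muscle 1 higher and 1 lower, and epidermis 3 higher and 2 lower. Midgut had 1 higher and 3 lower, and neurons had 2, hemocytes 3 and fat body 2 lower. In SceI48A embryos at that level, midgut had 2 higher and 4 lower, epidermis 1 higher and 1 lower, and trachea and muscle 2 higher each. Neurons had 1 higher, hemocytes 2 lower and fat body 1 lower. For these counts the share of all tested genes is not given. Several of the counts of called markers depend on single embryos. In Asx0 embryos, the epidermis count was 2 without Asx0 replicate 2 or wild-type replicate 2 and 3 without wild-type replicate 3. The hemocyte count was 2 without Asx0 replicate 3 and 0 without wild-type replicate 1, and the trachea count was 1 without wild-type replicate 1. In SceI48A embryos, the midgut count was 2 without SceI48A replicate 3 and 0 without SceI48A replicate 2 or any 1 of the wild-type embryos. The hemocyte count was 1 without any 1 embryo but SceI48A replicate 4. The epidermis count was 0 without wild-type replicate 3, and the fat body count was 0 without SceI48A replicate 3 or wild-type replicate 2, 3 or 4.

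The foregut and hindgut, where fkh is also expressed, had 0 of 8 markers called by limma in either comparison. In SceI48A embryos 4 of these 8 were higher at an unadjusted p under 0.05, the median was 0.14, and their mean level of 10.12 to 10.30 overlapped the 10.01 to 10.13 of wild type. In Asx0 embryos 3 of the 8 were lower at an unadjusted p under 0.05 (median -0.08). The share of all tested genes at that level is not given here, so these counts have no background beside them. The part of these tissues in the values of fkh, CrebA, sage and pip was not tested.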

How the data were processed

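Poly(A) RNA of single embryos was sequenced, and the authors used Salmon for transcript abundance, tximeta for gene totals and DESeq2 for their tests. They had chosen embryos of like stage from morphology and principal components. The submitters' notes name the build dm6, Salmon, DESeq2 and deepTools without versions. The 2 deposited tables hold log2 normalized counts per embryo, whose transformation is not given in the sources used here. The authors' tables also hold each gene's mean normalized count, a signal over all embryos of a table, used here as the filter. Their own comparison columns (log2 fold change, wild type relative to mutant, standard error, test score, p and adjusted p) were not used. All columns of per-embryo values were mapped to a labelled embryo.

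Each table was fitted with limma 3.58.1 in R 4.3.3 (lmFit, eBayes with a variance trend, Benjamini-Hochberg adjustment over all genes whose mean count reached 10). No pseudocount was added to the log2 values. The fit was tested on simulated data: at a log2 change of 0.5 it recovered 93% of 100 changed genes among 10212 in the Asx0 simulation and 73% among 10369 in the SceI48A simulation, and 44% and 18% of 50 genes at a change of 0.25. Those changes were added on the deposited log2 scale, to independent normal noise at each gene's own within-group SD. Shifts shared by many genes of an embryo were not simulated. Fewer genes were changed in the simulation than the 1158 and 776 called in the Asx0 and SceI48A comparisons, so the adjustment does not act alike. Recovery in the real embryos may therefore differ.

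The gland genes, lists and tests were chosen with earlier results of these data known. Named genes are the 6 gland genes, up to 4 called genes of largest change and 2 uncalled genes of highest count per list, the prolyl 4-hydroxylase alpha family, the 3 genes most like each gland gene by correlation, and Asx and Sce; from these lists a part is printed. TwdlV and Cpr65Eb were chosen after their values were seen, as were the difference between PH4alphaSG2 and PH4alphaSG1 and the marker means without their most changed gene. Of 165 list entries, 161 were in the tables. Annotation is that of Ensembl on dm6. A gene most like fkh that has no symbol in the tables used here is not named. Alternatives were quantile and median normalization, no filter and a mean count of 50, pseudocounts of 1 and 5 on the linear value, robust or untrended variances, embryo weights, covariates from msl-2 and Sxl or from cuticle genes, the replicate number as a block, and each embryo left out.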

Additional observations from a re-analysis of the deposited data

Results flagged for a closer look

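PH4alphaSG1 lay on opposite sides of wild type in the 2 comparisons. All 4 SceI48A embryos were below the mean of their wild type (mean difference of -0.21 on the log2 scale), and all 5 Asx0 embryos were above the mean of theirs (0.14). Neither difference was called by limma (adjusted p = 0.202 and 0.467), the Asx0 value was -0.03 without wild-type replicate 1, and the difference between the mutants was not tested. Of the 18 sets of 1 gene in 1 group with 4 or 5 embryos, 0 held an embryo past Dixon's 95% critical value. The wild-type group of the Asx0 table has 3 embryos and was not examined in this way.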

How the results depend on the processing

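Over 12 alternatives and 8 fits that each left out 1 embryo, 228 of 240 values of the gland genes kept their direction and their side of the threshold, 10 changed sign, 1 lost its call and 1 gained one. pip in SceI48A embryos was called in all of them (0.43 to 0.54). With the replicate number as a block, the log2 fold change of sage in Asx0 embryos was 0.37 with a limma adjusted p of 0.0625, so 0 gland genes were called. The block also ended the calls of klar (adjusted p = 0.111), sll (0.0693), epsilonCOP (0.0849), Tapdelta (0.138), ps (0.0507) and wbl (0.0541). Having no filter ended those of sll, Tapdelta, ps and wbl, the msl-2 and Sxl covariate those of klar, sll and Tapdelta, the cuticle covariate those of sll and wbl, embryo weights that of sll and quantile normalization that of wbl. The fold change of fkh in Asx0 embryos was 0.0529 with the block, 0.0202 with embryo weights and 0.0350 with the covariate from msl-2 and Sxl. Replicate numbers did not pair the embryos: correlations of same-numbered embryos were -0.09 to 0.16 in the Asx0 table and -0.13 to 0.11 in the SceI48A table, and 1 of 3 and 0 of 4 mutant embryos correlated best with the wild-type embryo of their number. Leaving out 1 embryo gave ranges in the Asx0 comparison of -0.0761 to 0.0829 for fkh, -0.0220 to 0.13 for CrebA, -0.20 to 0.37 for pip, -0.0253 to 0.23 for PH4alphaSG1 and -0.0668 to 0.25 for PH4alphaSG2, and in the SceI48A comparison of 0.26 to 0.42 for CrebA and of 1 to 2 gland genes called. The cause of these changes was not tested. Over all genes, 1158 were called in the Asx0 comparison, against 654 with the replicate block and 749 with the msl-2 and Sxl covariate, and 776 in the SceI48A comparison, against 446 with the block, 421 with no filter, 1178 with embryo weights and 390 to 658 with 1 embryo left out. Depth is unknown, and small changes of low genes could be missed.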
